A study of Xenopus tropicalis with 26 samples.

Results

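Single embryos of clutch C were compared with single embryos of clutch A of the frog Xenopus tropicalis, to see how far gene expression in the early gastrula differs between these sets of siblings. Each clutch gave 5 whole, untreated embryos at Nieuwkoop-Faber stage 10.25, 7 hours after fertilisation. A clutch is a set of sibling eggs, here fertilised in vitro after the females had been primed with hormone. A further 5 embryos came from clutch B, which does not enter the comparison and is described only beside it. Polyadenylated RNA of each embryo was made into a Smart-seq2 library, and its expression was deposited as TPM, a relative transcript abundance that scales every embryo to the same total. Of 26550 gene models (predicted genes of the genome annotation) in the table, 12545 had a mean of at least 1 TPM over the 10 embryos of clutches C and A and were compared. The lowest of them averaged 1 TPM and the highest of those left out 0.999 TPM. The 12545 models held 99.8% of the TPM of every embryo.

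An early frog embryo lives on RNA and protein that its mother laid down in the egg. Its own genome becomes active at the mid-blastula transition, and maternal transcripts are cleared as zygotic ones accumulate. A gastrula at this stage holds both kinds of RNA. These deposited values do not separate maternal from zygotic transcripts. The gene models carry no names: 0 of the 26550 IDs matched the RefSeq gene table of the species. No function, germ layer or sequence is therefore given to any model, and the label "whole embryo" was not checked against marker genes.

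The clutch to which an embryo belonged was visible in its whole profile. The distance of an embryo to a clutch was taken as the root mean square difference in log2(TPM + 1) to the mean of that clutch, without the embryo itself, over the 10000 models with a mean of at least 5 TPM. Clutch C embryos 1 to 5 lay 0.221, 0.237, 0.197, 0.210 and 0.237 from the mean of their siblings, and 0.541 to 0.583 from the mean of clutch A. Clutch A embryos 1 to 5 lay 0.262, 0.210, 0.216, 0.240 and 0.330 from the mean of their siblings, and 0.542 to 0.590 from the mean of clutch C. Each of the 10 embryos was thus nearer to its own clutch, and the highest distance within a clutch was well below the lowest one between clutches. Measured as the share of TPM that would have to move to another model to turn one embryo's profile into another's, clutch C differed from clutch A by a median of 8.57% (range 6.997 to 11.2% over 25 pairs). Pairs within clutch C differed by 5.14% (4.06 to 7.15%, 10 pairs) and pairs within clutch A by 5.66% (4.20 to 7.35%, 10 pairs). On this scale, which abundant transcripts dominate, the ranges within and between clutches overlapped at their ends.

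Embryo 5 of clutch A stood apart from its siblings. In 34 models it was at 10 TPM or more and at least 4-fold above each of its siblings, against 0 to 2 models for any other embryo of the 10. In all 34 it also lay above every clutch C embryo. In the model where it was highest, clutch C had 12.4 to 67.98 TPM, and clutch A had 845 TPM in embryo 5 and 8.44 to 34.6 TPM in its siblings. In the next, clutch C had 149 to 198 TPM, and clutch A had 730 TPM in embryo 5 and 140 to 175 TPM in its siblings. These models were chosen after their values had been seen, for the spread within clutch A. The test between the clutches described below called 1 of the 34, against 38.3% of all models. Results below that rest on this embryo are given with and without it.

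**Figure D1:**
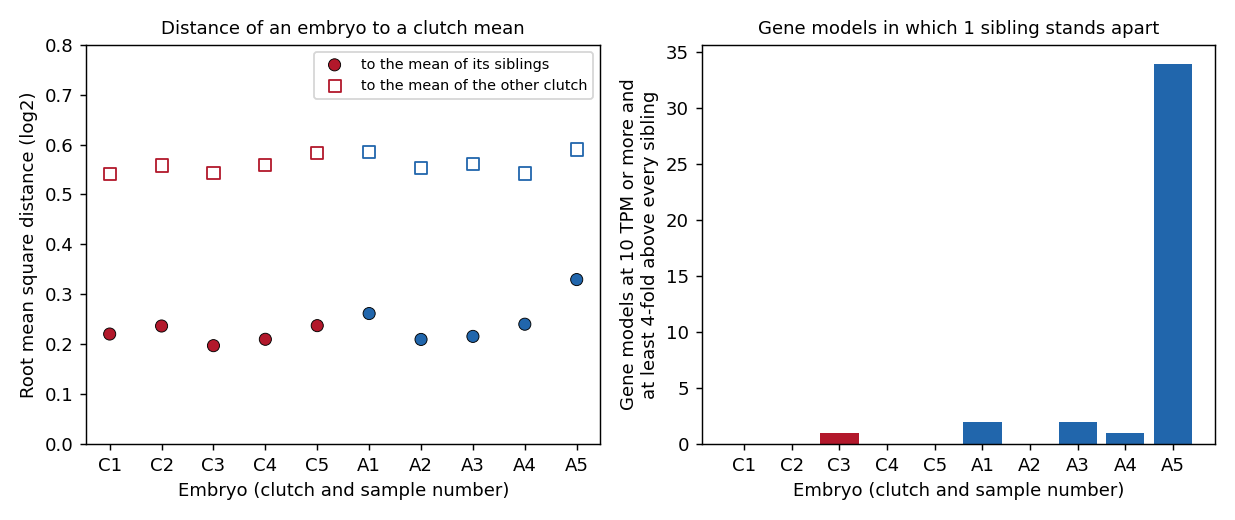
Left, the distance of each embryo (C1 to C5 and A1 to A5) to the mean of its siblings (filled circles) and to the mean of the other clutch (open squares), in log2 units over 10000 gene models; all 10 embryos lie nearer to their own clutch. Right, the number of gene models in which an embryo is at 10 TPM or more and at least 4-fold above every sibling, with 34 for embryo A5 and 0 to 2 for the others.

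Expression differed between the clutches in 4811 of the 12545 models, 38.3% of those tested, by limma's moderated test on log2(TPM + 1) at a Benjamini-Hochberg adjusted p under 0.05. Of these, 2163 (17.2%) were higher and 2648 (21.1%) lower in clutch C. The majority of lower calls turned with 1 scaling: after division by median ratios, 2421 models were called higher and 2295 lower. Quantile normalization kept more lower calls, with 2297 higher and 2436 lower, as did the other alternative fits. Division by median ratios moved the median difference over all models from -0.03 to -0.0034 on the log2 scale. No general direction is therefore given. Without embryo 5 of clutch A there were 4719 calls. A filter on the mean admits some models through 1 clutch alone: 288 models averaged under 1 TPM in clutch C, of which 165 were called, and 335 averaged under 1 TPM in clutch A, of which 225 were called. Among the 11922 models at 1 TPM or more in both clutches, 4421 (37.1%) were called.

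In 3455 models (27.5%) the embryos of the clutches did not overlap at all. All 5 clutch C embryos lay above all 5 clutch A embryos in 1583 models (12.6%) and below them in 1872 (14.9%). The test called 3384 of these 3455 models, and a further 1427 models were called although at least 1 embryo of one clutch lay within the range of the other. The p-values set the difference between these clutches against the variation among their embryos, which includes that of the library made from each embryo. The labels give 1 set of siblings per clutch, so the p-values do not extend to other clutches. Differences of the parents, of the fertilisation and of the handling of a clutch cannot be told apart.

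**Figure D2:**
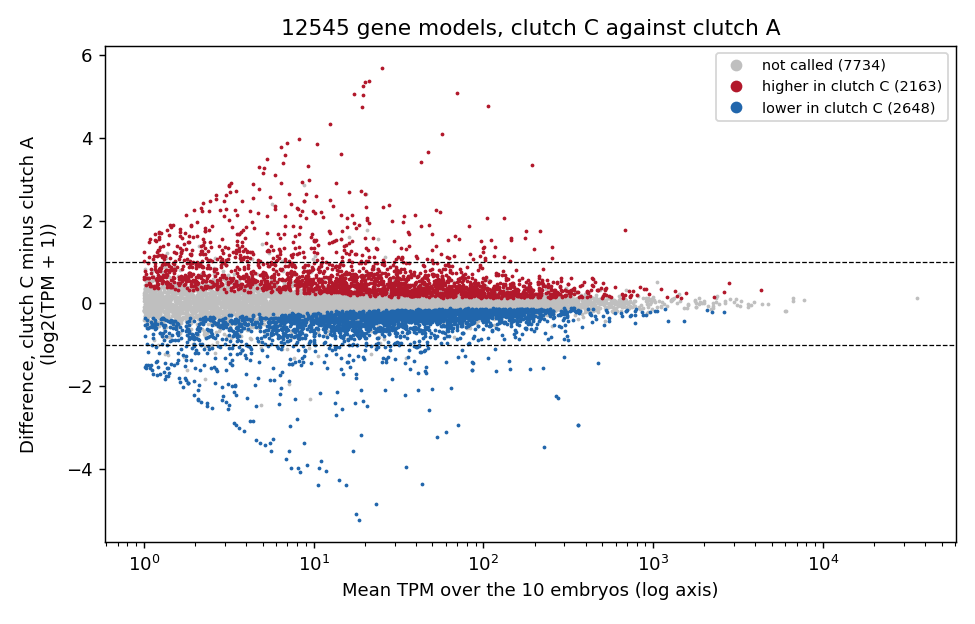
Difference between clutch C and clutch A on the log2(TPM + 1) scale against the mean TPM over the 10 embryos (log axis), for 12545 gene models. Of these, 2163 were called higher (red) and 2648 lower (blue) in clutch C, and the dashed lines mark a 2-fold difference.

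Most called differences were small. Their median size was 0.43 on the log2(TPM + 1) scale, which is 1.34-fold, with quartiles of 0.28 and 0.69. Models called higher in clutch C differed by a median of 0.49 and models called lower by a median of -0.38. At least 2-fold differences were found in 680 called models, 5.42% of those tested. Among these the higher models were the larger part, with 389 higher (3.1%) and 291 lower (2.32%) in clutch C, and the same order held in all 20 alternative fits, which include those that leave out 1 embryo each. At least 4-fold differences were found in 98 higher and 80 lower models, and at least 8-fold differences in 27 higher and 31 lower models. The embryos of the clutches did not overlap in 635 of the 680 models with 2-fold differences. Leaving out each of the 10 embryos in turn kept 3699 of the 4811 calls and 663 of the 680 2-fold calls in every one of the 10 fits, and no called model changed direction.

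**Figure D3:**
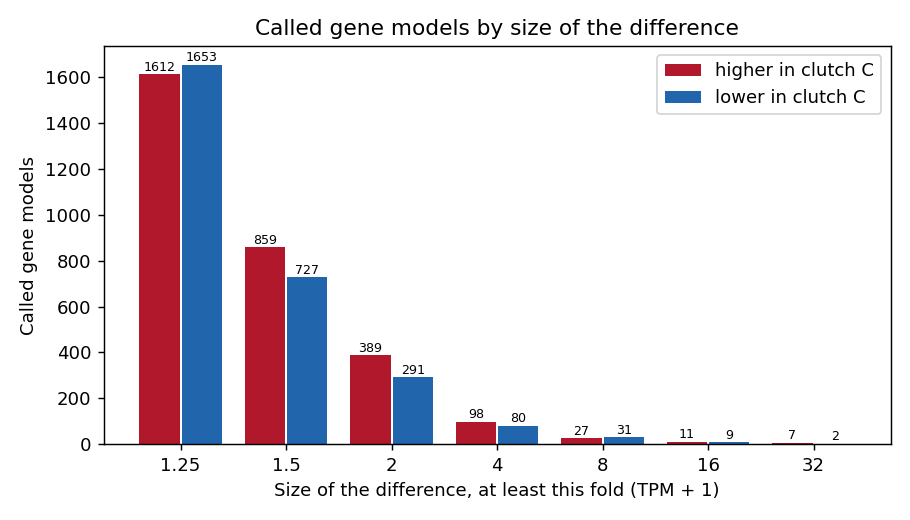
Number of called gene models (bars) whose difference reached at least the fold given on the horizontal axis, on the TPM + 1 scale, for models higher (red) and lower (blue) in clutch C. At 1.5-fold 859 models were higher and 727 lower, and at 2-fold 389 were higher and 291 lower.

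The share of called models changed little with abundance, and the size of the differences changed much. Of the 1749 models with a mean from 1 to 3 TPM, 32.5% were called, and of the 2320 models at 100 TPM or more, 35.0%. Shares in between ran from 38.8% to 41.4%. The median size of a called difference was 0.78 in the lowest class and 0.26 in the highest. At least 2-fold differences were found in 194 models (11.1%) of the lowest class and in 35 models (1.51%) of the highest, of which 21 were higher and 14 lower in clutch C. The spread among siblings fell along with this, from a median SD of 0.24 in clutch C and 0.25 in clutch A in the lowest class to 0.083 in clutch C and 0.097 in clutch A in the highest. The part of this spread in the sizes was not tested. The lowest class also holds models that averaged under 1 TPM in 1 clutch and passed the filter only through the other. The means of such models had to differ, and their part in the larger sizes was not tested either.

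The TPM of the called models was summed in each embryo. The 2163 models called higher held 16.4% ± 0.195 of the TPM in clutch C and 12.4% ± 0.262 in clutch A (SD, n = 5 each). The 2648 models called lower held 14.5% ± 0.240 in clutch C and 18.8% ± 0.270 in clutch A. Models with at least 2-fold differences were a small part: those called higher held 1.28% ± 0.0467 in clutch C and 0.391% ± 0.0115 in clutch A, and those called lower held 0.306% ± 0.0266 in clutch C and 1.11% ± 0.0898 in clutch A. These sums describe models chosen by the same test.

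The called models given by ID number 4, taken from those whose clutches did not overlap. They were chosen for the largest difference and for the highest abundance at 2-fold or more in each direction. Their lack of overlap was thus a condition of the choice. The model with the largest difference, Xetrov90020226m.g, had 43.5, 56.7, 53.6, 43.8 and 54.2 TPM in clutch C embryos 1 to 5 and was listed at 0 in all 5 embryos of clutch A. The clutches were far apart, with no intermediate embryo. The limma difference was 5.67 ± 0.097 (SE) on the log2(TPM + 1) scale (adjusted p = 2.4e-12). Against a group at 0 this size depends on the pseudocount, and it was 8.97 with a pseudocount of 0.1 and 3.46 with 5. In clutch B the model had 43.1 to 50.8 TPM, within the range seen in clutch C or just below it.

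The most abundant model with a 2-fold higher level, Xetrov90015134m.g, had 1134, 1031, 1026, 1069 and 1046 TPM in clutch C embryos 1 to 5. Clutch A embryos 1 to 5 had 308, 324, 275, 367 and 290 TPM. The lowest clutch C embryo was far above the highest clutch A embryo. The mean was 1061 ± 44.3 TPM in clutch C and 313 ± 35.3 TPM in clutch A (SD, n = 5 each), a ratio of 3.39, and the limma difference was 1.76 ± 0.070 (SE; adjusted p = 1.54e-09). Clutch B lay between them, at 666 ± 25.7 TPM.

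In the other direction, Xetrov90016066m.g was listed at 0 in clutch C embryos 1, 2, 3 and 5 and at 0.02 TPM in embryo 4, against 35.8, 31.5, 42.7, 39.2 and 35.1 TPM in clutch A embryos 1 to 5. All clutch A embryos had the transcript at similar levels. The limma difference was -5.23 ± 0.096 (SE; adjusted p = 2.4e-12), or -8.47 with a pseudocount of 0.1 and -3.06 with 5. Clutch B was like clutch C here, with at most 0.02 TPM.

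The most abundant model with a 2-fold lower level, Xetrov90007733m.g, was less even among siblings. It had 326, 227, 262, 204 and 236 TPM in clutch C embryos 1 to 5, against 412, 1021, 635, 625 and 815 TPM in clutch A embryos 1 to 5. Clutch A ranged widely, from 412 TPM in embryo 1 to 1021 TPM in embryo 2. The means were 251 ± 46.6 TPM in clutch C and 702 ± 229 TPM in clutch A (SD, n = 5 each), and the limma difference was -1.44 ± 0.22 (SE; adjusted p = 0.000563). Clutch B had 170 ± 35.8 TPM.

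**Figure D4:**
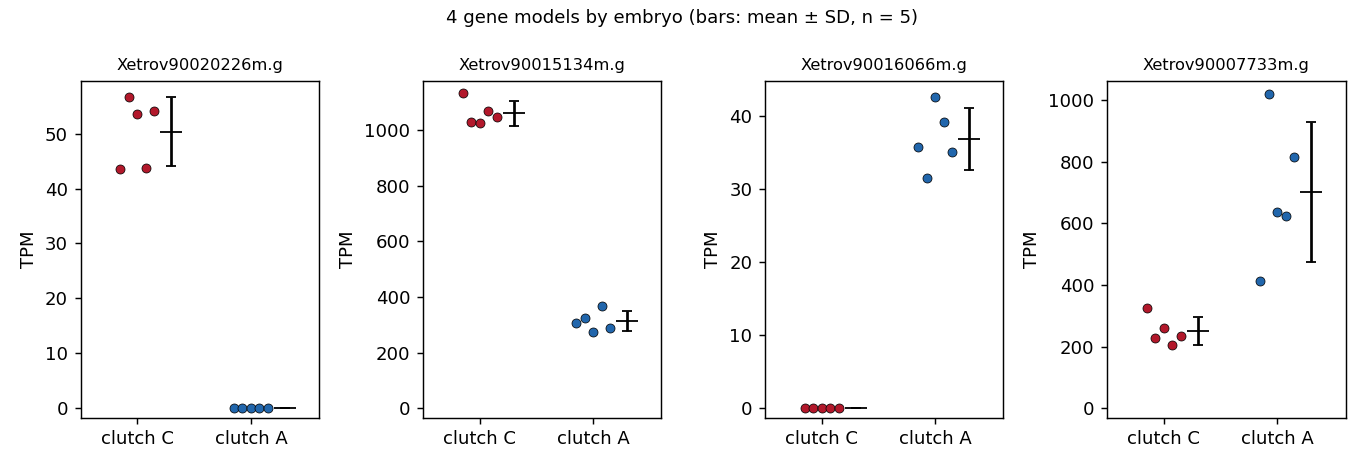
TPM of 4 gene models in the 5 embryos of clutch C (red) and of clutch A (blue), with mean ± SD beside the points and a separate vertical axis for each model. Xetrov90020226m.g is listed at 0 in clutch A and Xetrov90016066m.g at 0 or 0.02 TPM in clutch C. The 4 models were chosen among called models whose clutches do not overlap.

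Other abundant models were taken from the same called models without overlap of the clutches, so their separation was a condition of the choice. The model ranked sixth by abundance among those at least 2-fold higher had 241 to 414 TPM in clutch C and 27.1 to 40.5 TPM in clutch A, a limma difference of 3.33 ± 0.15 (SE; adjusted p = 2.35e-08). Among the lower models, the seventh had 29.1, 35.5, 37.9, 43.3 and 39.7 TPM in clutch C embryos 1 to 5, against 433, 419, 429, 398 and 416 TPM in clutch A embryos 1 to 5. Its limma difference was -3.47 ± 0.085 (SE; adjusted p = 2.43e-11), and clutch B had 239 ± 25.1 TPM. The sixth had 93.2 ± 6.20 TPM in clutch C and 442 ± 24.6 TPM in clutch A, with 448 ± 13.1 TPM in clutch B. Ranks 2 and 3 among the lower models had identical values in every embryo, 50.5 to 112 TPM in clutch C and 407 to 863 TPM in clutch A, so their standing as separate genes is uncertain.

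Some models were present in 1 clutch and nearly absent from the other. At 10 TPM or more in all 5 embryos of one clutch and under 1 TPM in all 5 of the other were 9 models high in clutch C and 14 high in clutch A. The 9 models averaged 12.8 to 50.4 TPM in clutch C and reached at most 0.71 TPM in any clutch A embryo, with 3 of them listed at 0 in all 5. The 14 models reached at most 0.94 TPM in any clutch C embryo, with 1 of them listed at 0 in all 5, and averaged 11.2 to 36.8 TPM in clutch A. These levels of 10 TPM and 1 TPM were chosen after the values had been seen, and models picked for such a gap had to differ, so no test is given for them. With no level set beyond the mean of at least 1 TPM over the 10 embryos, 18 models were above 0 in every clutch C embryo and listed at 0 in every clutch A embryo. Their clutch C means were 2.33 to 50.4 TPM. Another 11 models were listed at 0 in every clutch C embryo and above 0 in every clutch A embryo, where they averaged 2.03 to 14.7 TPM. A model at 0 in 1 clutch passes that filter only through the other, so the filter sets how low these means can be. The TPM table keeps no read numbers, so a value of 0 cannot be turned into a detection limit.

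**Figure D5:**
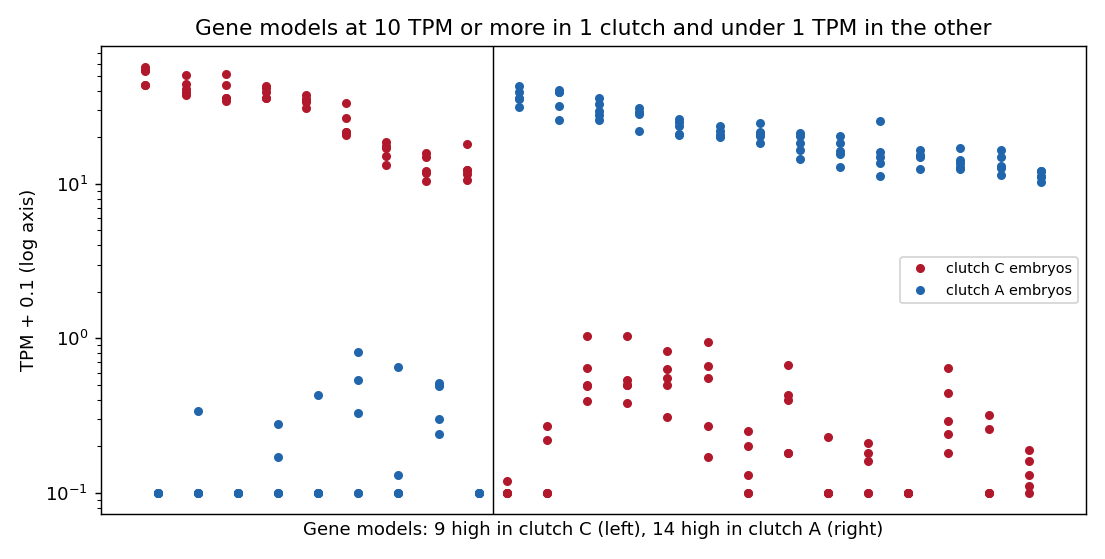
TPM + 0.1 (log axis) of each clutch C embryo (red) and clutch A embryo (blue) for the 9 gene models at 10 TPM or more in clutch C and under 1 TPM in clutch A (left of the line), and the 14 models with the opposite pattern (right). Points on the lowest level are values listed at 0.

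Clutch B gives the level of further siblings for the same models. Of the 9 models at 10 TPM or more in clutch C and under 1 TPM in clutch A, 6 were under 1 TPM in all 5 embryos of clutch B, 2 were at 10 TPM or more in all 5, and 1 was in between. Of the 14 models under 1 TPM in clutch C and at 10 TPM or more in clutch A, 9 were at 10 TPM or more in all 5 embryos of clutch B, 2 were under 1 TPM in all 5, and 3 were in between. Over the 389 models called at least 2-fold higher in clutch C, all 5 clutch B embryos lay nearer the clutch C mean in 59 (15.2%) and nearer the clutch A mean in 203 (52.2%). Over the 291 models called at least 2-fold lower, all 5 lay nearer the clutch C mean in 69 (23.7%) and nearer the clutch A mean in 155 (53.3%). In the remaining 127 and 67 models clutch B embryos fell on both sides of the midpoint. These are counts of levels, without a test.

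The spread among siblings was compared next. The median SD of log2(TPM + 1) among siblings was 0.113 in clutch C and 0.128 in clutch A over 10000 models, and it was the larger one in clutch C in 41.8% of models. Without embryo 5 of clutch A the clutch A median was 0.121, and clutch C had the larger SD in 45.97% of models. The distance of an embryo to the mean of its siblings averaged 0.220 ± 0.0173 in clutch C and 0.251 ± 0.0483 in clutch A (SD, n = 5 each). The difference of -0.0310 did not pass an exact two-sided permutation test over embryos (p = 0.230, adjusted over 3 measures 0.230), where 5 against 5 embryos allow a smallest p of 0.00794. Without embryo 5 of clutch A the difference was -0.00387 (adjusted exact permutation p = 0.746).

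A test of the spread of single models, by limma on the absolute deviations from the clutch mean, called 6 of 10000 models (0.06%), 5 with more spread in clutch C and 1 with more in clutch A. All 6 were listed at 0 in every embryo of the clutch with less spread, so they repeat that the transcript was not detected there. At an unadjusted p under 0.05 there were 1083 of the 10000 models, and the same cut-off passed 816 models simulated without a change in spread. In the embryos, no model was called with another pseudocount, with median-ratio scaling, at a mean of at least 20 TPM, or without any one embryo of clutch A. On simulated data the adjusted threshold found 0 of 100 models with 3-fold spread and 0 of 100 with 6-fold spread. A model that was not called is therefore not shown to vary alike in both clutches.

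A few transcripts split the siblings of a clutch. In clutch C, 20 models were under 1 TPM in at least 1 embryo and at 10 TPM or more in at least 1 other, and in clutch A there were 31, with 8 models in both groups. The models in both groups include a pair with identical values in all 10 embryos, counted here as separate models. Without embryo 5 the clutch A count was 12, below that of clutch C, and leaving out any other embryo gave 24 to 28 models in clutch A and 14 to 19 in clutch C. In 22 of the 31 clutch A models a lone sibling was at 10 TPM or more, and in 13 of these it was embryo 5. In 6 further models embryo 5 alone was under 1 TPM. Embryo 4 of clutch A alone was under 1 TPM in 6 models too, but the counts are not alike. Some of the models of embryo 4 were among the 13 in which embryo 5 alone was at 10 TPM or more. In those embryo 4 had 0.70 to 0.90 TPM, and in the rest of its models it was listed at 0. Clutch A embryos 1, 2 and 3 were alone under 1 TPM in 1, 3 and 0 models. In clutch C a lone sibling was at 10 TPM or more in 7 of 20 models, and no embryo accounted for more than 3 of these. Embryo 2 of clutch C alone was under 1 TPM in 5 models, and each other clutch C embryo in 1 to 3. One model was at 98.5 and 106 TPM in clutch C embryos 4 and 5 and at most 0.05 TPM in embryos 1, 2 and 3, with at most 0.10 TPM in clutch A. Another was at 21.7, 15.7 and 18.9 TPM in clutch C embryos 1, 3 and 5 and listed at 0 in embryos 2 and 4, and reached at most 0.74 TPM in clutch A. The limma test between the clutches called 2 of the 20 and 2 of the 31, against 38.3% of all models. These models were chosen for a wide spread within a clutch, which lowers the share that such a test can call.

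Counts over whole embryos were also set side by side. Clutch C embryos 1 to 5 had 12432, 12500, 12490, 12413 and 12419 models at 1 TPM or more, and clutch A embryos 1 to 5 had 12354, 12343, 12446, 12273 and 12372. The groups overlapped through embryo 3 of clutch A, and the mean difference of 93.2 models had an exact two-sided permutation p of 0.0317, or 0.0952 adjusted over the 3 measures. Without that embryo, which was the one in the overlap, the difference was 115.3 models, with an adjusted exact permutation p of 0.0476. Leaving it out separated the clutches fully, so the test had to give the smallest p it allows, and no conclusion is drawn from it. Leaving out any other embryo gave an adjusted p of 0.0952 to 0.190 by the same test. With a floor of 5 TPM in place of 1 TPM the difference was 9 models (adjusted exact permutation p = 0.675). The 100 most abundant models held 24.3% ± 0.874 of the TPM in clutch C and 23.5% ± 0.445 in clutch A (SD, n = 5 each). The difference of 0.785 percentage points did not pass the exact two-sided permutation test (p = 0.127, adjusted 0.190).

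Not every gene model is a separate measurement. Among the 12545 models, 78 had values identical to those of another model in all 10 embryos, in 23 sets of up to 11 models, and 28 of the 78 (35.9%) were called, near the 38.3% of all models. With 1 model kept per set, 12490 models were tested and 4800 called. None of the 4 models given by ID has such a copy.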

How the data were processed

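TPM values of 15 single embryos (5 each of clutches A, B and C) were used as deposited by the authors, 1 column per embryo. RSEM 1.2.12 and Bowtie2 2.2.7 are named in the submitters' processing notes; neither genome build nor annotation is given in the sources used here. The reads per embryo cannot be read from TPM, so depth is unknown, and precision rests on the 5 embryos per clutch. Peak lists of the series were not used.

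Embryos were assigned to clutches from their titles. With log2(TPM + 1) of the 10 embryos of clutches C and A, models with a mean of at least 1 TPM were fitted by limma 3.58.1 (R 4.3.3, eBayes with its trend and robust options). Differences on this scale understate the change of low models. The threshold was 0.05 for the p adjusted after Benjamini-Hochberg over all 12545 models, and 2-fold is a difference of 1 on that scale. Spread was tested with limma on absolute deviations from the clutch mean, for models with a mean of at least 5 TPM. Distances to the other clutch were scaled to a mean of 4 embryos. Values per embryo were compared with exact permutation tests (scipy 1.17.1, Python 3.11.15). Both limma steps were tested on simulated data. The test of levels found 24 of 50 models changed 1.25-fold, so small changes were often missed. It found 44, 46 and 49 of 50 models changed 1.5-, 2- and 4-fold, with 8 false calls. The changed models were drawn from those above about 5 TPM in clutch A, so recovery at lower levels was not tested. Far fewer models were changed in the simulation than were called in the embryos. The adjusted threshold depends on that share, so the recovery need not be the same in the embryos. The spread test called no changed model at its adjusted threshold.

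Alternatives were pseudocounts of 0.1 and 5, other filters, median-ratio scaling, quantile normalization, eBayes in its plain form, all 15 embryos in the fit, a block for the sample number, and fits without each embryo in turn. The 4 models given by ID were chosen by rule: the largest difference, and the highest mean TPM at 2-fold or more, in each direction, among called models whose clutches do not overlap. The members and rules were chosen with earlier results of these data known. Levels in clutch B, models present in 1 clutch, models that split siblings, models of identical values and models in which 1 embryo stood apart were added after the data were seen.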

Additional observations from a re-analysis of the deposited data

Results flagged for a closer look

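In 13 sets of 5 sibling values (the 4 models given by ID and 3 measures per embryo, in each clutch, without the clutch A set of Xetrov90020226m.g, which is listed at 0 throughout), the gap between the most extreme embryo and its nearest sibling was set against the whole range, with a limit that chance passes in about 1 of 20 sets. Embryo 4 of clutch C passed it in Xetrov90016066m.g, at 0.02 TPM where its siblings are listed at 0, which is next to nothing beside the clutch A values.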

How the results depend on the processing

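Calls ranged from 3431 to 5235 over 20 alternatives, and from 4238 to 4719 with 1 embryo left out; higher calls then ran from 1906 to 2147 and lower calls from 2240 to 2572. With a mean of at least 10 TPM only 8637 models were tested, of which 3431 were called. Of these, 1432 were higher, and 265 differed by at least 2-fold. These counts are to be read against the smaller number tested. With a pseudocount of 5, which shrinks the differences of low models, there were 293 such models, and they ran from 660 to 694 with 1 embryo left out. Models without overlap ran from 3690 to 4033 with 1 embryo left out, against 3455 with all embryos. Leaving out an embryo can only keep or raise this count, so the range cannot show a loss. The spread test called 39 models at a mean of at least 1 TPM, where all 12545 models were tested. It called 0 with pseudocounts of 0.1 and 5, at 20 TPM and with median-ratio scaling. In these settings its unadjusted p was under 0.05 in 1108, 1066, 733 and 1042 models, with fewer models tested at 20 TPM. With 1 embryo left out it called 0 to 5 models. Without any 1 clutch A embryo it called 0, with 1079 to 1355 models at an unadjusted p under 0.05. The cause was not tested. With 1 embryo left out, the difference in sibling distance ran from -0.0456 to -0.00387. That in models at 1 TPM or more ran from 72.05 to 115.3. Its adjusted exact permutation p was 0.0476 without embryo 3 of clutch A, where the end of the overlap forced the smallest p. By the same test it was 0.0952 to 0.190 without any other embryo. The difference in the share of the 100 most abundant models ran from 0.582 to 1.07 percentage points. The 4 models given by ID kept their call and direction throughout. Sample numbers are shared between clutches, and the labels do not say what they mean. Deviations of same-numbered embryos correlated at -0.0535 to 0.0586, and those of embryos with other numbers at -0.194 to 0.193. Of the 5 clutch C embryos, 0 correlated best with their own number. These values show no closer link of same-numbered embryos, but they cannot tell whether such embryos were handled together. With the sample number as a block 4415 models were called, 2024 higher and 2391 lower.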
